A study of Homo sapiens with 9 samples.

Results

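Epithelial cells hold on to each other through adherens junctions, tight junctions and desmosomes, and exchange small molecules through gap junctions. Expression of 44 genes of these junctions, with the keratins and the transcription and splicing regulators of the epithelial state, was examined in HCT116 colon cancer cells made to express either isoform of Tazarotene-induced gene 1 (TIG1, gene symbol RARRES1). The genes were taken by name, with earlier results of these data known. Each was read from its brightest probe set, the set of probes with the highest mean log2 intensity over the 9 arrays. Of the 44 genes, 38 were tested. KRT80 and CDH2 were too dim, reaching the array median on fewer than 2 of the 3 arrays in every group, and CTNND1, ESRP2, KRT81 and F11R were not analysed here because no probe set named the gene alone. The 44 genes stand among 19775 genes with a probe set, of which 13353 were bright enough to test.

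The arrays came from 3 inducible stable lines of HCT116, each labelled as a single stable clone of the GeneSwitch system, in which mifepristone (MFP) acts on a switch protein that turns on the transgene. The TIG1A line carried the switch plasmid and a vector for the 294-residue isoform, the TIG1B line the switch plasmid and a vector for the 228-residue isoform, and the control line the switch plasmid and the vector without an insert. All 3 lines received 5 nM MFP for 24 h before total RNA was collected, and 3 samples per line were hybridised, 9 arrays in all. MFP was therefore present in the controls too. With 1 clone per line, the isoform and any other difference between clones cannot be told apart, and p-values measure the spread between the samples of a clone.

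The labels were checked on RARRES1. Its brightest probe set read 56404, 41198 and 45689 in TIG1A cells and 27085, 19538 and 18603 in TIG1B cells. In control cells that set read 57.9, 48.8 and 4.8. A second RARRES1 probe set read 66754, 58452 and 63438 in TIG1A cells and 44513, 37082 and 36413 in TIG1B cells. In control cells the second set read 4.65, 2.90 and 5.17. Array medians lay between 59.9 and 73.9. The deposited values are signal intensities scaled by the authors to a mean of 500 on every array. Of 12 colon epithelial markers, 5 were above the median on all 9 arrays (EPCAM, KRT8, KRT18, KRT19 and ELF3), and the intestinal cadherin CDH17 was below it on all 9. None of the 4 leukocyte markers with a probe set was above the median on all 9 arrays. Of 7 fibroblast markers only COL1A1 was above it on all 9, with COL3A1, LUM and PDGFRB below it on all 9, and their summed intensity was 1453 to 1916 in TIG1A cells, 1108 to 1152 in TIG1B cells and 578 to 999 in control cells. COL1A1 carried that order, since the other 6 together summed to 141 to 272 in TIG1A cells, 204 to 245 in TIG1B cells and 102 to 398 in control cells. Of 4 endothelial markers only PECAM1 was above the median on all 9 arrays, at -0.92 on the log2 scale in TIG1A cells over control (adjusted p = 0.0692), with CDH5 and VWF below it on all 9. The first TIG1A and the first TIG1B array had a GAPDH 3' to 5' ratio of 1.00 and 1.01, against 0.899 to 0.905 on the other arrays of those lines and 0.924 to 0.950 in controls. The part of the fibroblast markers in the results was not tested, and the counts without the first TIG1A and TIG1B arrays are given below.

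As background, E-cadherin (CDH1) joins neighbouring cells at adherens junctions, claudins and occludin seal the space between them at tight junctions, and the desmosomal cadherins link through plakophilins and desmoplakin to the keratin filaments inside each cell. The grainyhead factor GRHL2, the OVOL zinc-finger factors and the ESRP splicing factors hold this programme in place in epithelia. ZEB1 and the SNAI factors repress it, CDH1 above all, by binding a short DNA sequence called the E2 box. When an epithelial cell takes on mesenchymal features, E-cadherin and keratins are typically lost while N-cadherin (CDH2) and vimentin (VIM) appear.

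The E2 box was looked for in the promoters of these genes, which are shown because repressors and activators of the programme act there. RefSeq promoter windows (GRCh38.p14, 250 bases before the start to 50 after) were matched for 23 of the 44 genes, giving 43 windows. The other 21 had no window and were not searched. CDH1, GRHL2, KRT19, PKP2, PKP3 and MARVELD3 were among these. CACCTG, or CAGGTG when read from the opposite strand, was found in 13 of the 43 windows (30.2%), against 20.6% of all 35116 windows. The grainyhead site, AACC followed by its reverse complement, was found in none of the 43 and in 0.134% of all windows. The motifs share no end and cannot overlap. A window of GJB2, the gap junction gene among the members, is given with those of the desmosomal cadherins DSG2 and DSC2 and, for comparison, with the CLDN7 window, which held the most E2 boxes. Capitals mark each E2 box on either strand.
GJB2 (chr13:20192889-20193188, minus strand): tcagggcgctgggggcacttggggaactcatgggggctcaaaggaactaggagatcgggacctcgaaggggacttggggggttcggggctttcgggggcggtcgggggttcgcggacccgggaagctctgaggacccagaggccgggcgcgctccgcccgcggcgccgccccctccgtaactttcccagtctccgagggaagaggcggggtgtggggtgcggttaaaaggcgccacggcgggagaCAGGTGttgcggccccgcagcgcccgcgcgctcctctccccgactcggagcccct
DSG2 (chr18:31497927-31498226, plus strand): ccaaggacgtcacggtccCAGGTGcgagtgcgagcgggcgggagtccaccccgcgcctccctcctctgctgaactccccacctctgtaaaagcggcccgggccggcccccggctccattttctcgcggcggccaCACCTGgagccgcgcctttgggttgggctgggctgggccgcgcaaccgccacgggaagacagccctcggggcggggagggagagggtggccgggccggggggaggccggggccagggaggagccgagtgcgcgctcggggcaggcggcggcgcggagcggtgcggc
DSC2 (chr18:31102372-31102671, minus strand): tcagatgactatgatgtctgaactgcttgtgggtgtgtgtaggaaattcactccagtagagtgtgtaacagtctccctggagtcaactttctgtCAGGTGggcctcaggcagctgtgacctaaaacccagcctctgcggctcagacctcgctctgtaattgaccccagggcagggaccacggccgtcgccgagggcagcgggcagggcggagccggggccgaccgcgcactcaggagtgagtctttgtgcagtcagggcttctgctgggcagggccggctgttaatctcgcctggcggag
CLDN7 (chr17:7262429-7262728, minus strand): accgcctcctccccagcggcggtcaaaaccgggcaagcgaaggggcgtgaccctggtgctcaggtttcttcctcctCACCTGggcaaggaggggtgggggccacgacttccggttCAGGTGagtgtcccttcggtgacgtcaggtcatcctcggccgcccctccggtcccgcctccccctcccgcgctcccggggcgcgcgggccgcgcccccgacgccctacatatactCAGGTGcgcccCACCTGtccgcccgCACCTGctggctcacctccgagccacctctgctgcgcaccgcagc
The match in GJB2 spanned bases -5 to 1 around the start. DSG2 had 2 matches, DSC2 had 1 and CLDN7 had 5. A match describes the letters in the window only.

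TIG1A cells differed from control cells in 7 of the 38 tested genes. GJB2, GRHL2 and CDH1 were higher, and KRT19, PKP2, PKP3 and MARVELD3 were lower, at an adjusted p under 0.05 (limma, Benjamini-Hochberg over all 29977 kept probe sets). That is 18.4% of the tested genes, beside 7.01% of all 13353 genes (3.39% higher and 3.62% lower). Because the list was chosen with earlier results of these data known, the 2 shares cannot be read as an enrichment. TIG1B cells differed from control cells in 1 of 38 (2.63%), KRT19, which was lower, beside 1.84% of all genes (0.637% higher and 1.21% lower). TIG1A cells differed from TIG1B cells in 1 of 38 (2.63%), GJB2, which was higher, beside 0.584% of all genes (0.359% higher and 0.225% lower). Because both comparisons against control use the same 3 control arrays, they are not independent. The 38 fold changes did not lean one way. Over the 38, the median log2 fold change against control was -0.01 with TIG1A and -0.04 with TIG1B, with 18 and 17 genes above 0, and the median over all tested genes was -0.03 and -0.01. The 3 arrays of each group did not overlap for 16 of the 38 in TIG1A cells against control (42.1%, beside 34.2% of all genes), 8 of them higher and 8 lower. For TIG1B cells against control it was 15 (39.5%, beside 26.8%), 6 higher and 9 lower, and for TIG1A against TIG1B cells 13 (34.2%, beside 28.4%), 9 higher and 4 lower. The split by direction depended on the scaling. With median centring 4 were called higher and 1 lower (CDH1, GJB2, GRHL2 and DSC2 against PKP2), beside 6.26% of all genes, and with quantile normalisation 2 higher and 5 lower (CDH1 lost and KRT8 added), beside 7.17%. The number called depended on the model, as did the background. It was 0 of 40 with no intensity filter, beside 0.106% of all genes, 13 of 28 with a filter at the 75th percentile, beside 25.3%, and 13 of 38 with a trended, robust variance estimate, beside 14.6%. Without the first TIG1A and the first TIG1B array it was 1 in TIG1A cells (GJB2, adjusted p = 0.0397) and 0 in TIG1B cells. The share of all genes called then fell to 1.15% and 0.00749%.

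**Figure D1:**
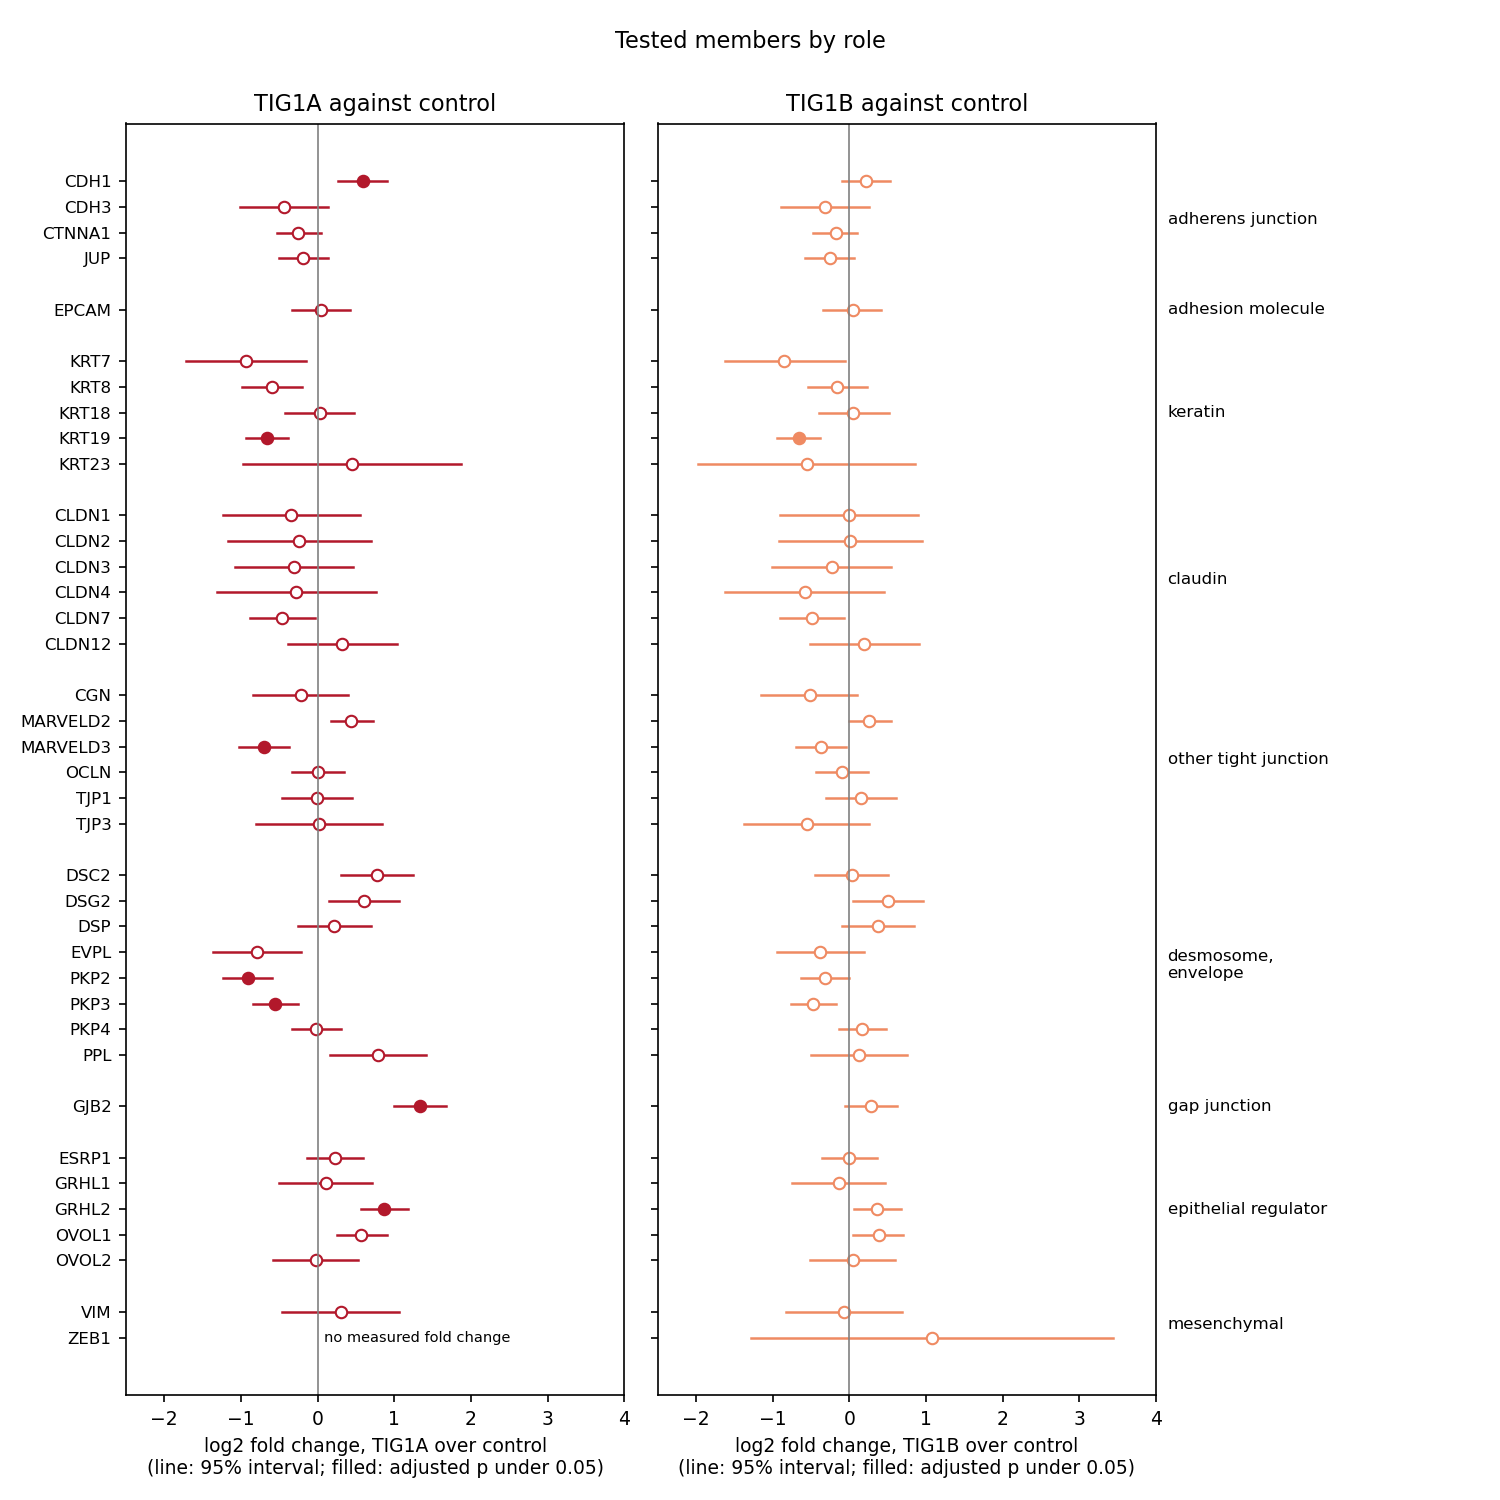
Log2 fold changes of the 38 tested genes in TIG1A cells (left) and TIG1B cells (right) over control cells, grouped by role, with 95% intervals from limma (3 arrays per group). ZEB1 has no point in TIG1A cells because it was below the array median on all 3 of their arrays. Filled points had an adjusted p under 0.05: 7 genes in TIG1A cells, 3 to the right of 0 and 4 to the left, and KRT19 alone in TIG1B cells.

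At the adherens junction, CDH1 was the member that differed. Its intensity was 6961, 6023 and 6097 in TIG1A cells, 4790, 4890 and 4983 in TIG1B cells, and 4806, 4041 and 3850 in control cells. Every TIG1A array was above every other array, while the TIG1B and control arrays overlapped. The means were 6360 ± 521 in TIG1A cells and 4232 ± 506 in control cells (SD, n = 3 each), a log2 fold change of 0.59 (SE 0.14, 1.51-fold, adjusted p = 0.0481). TIG1B cells averaged 4888 ± 96.2, a log2 fold change of 0.21 over control (adjusted p = 0.449), and the difference between TIG1A and TIG1B cells did not pass the test (0.38, adjusted p = 0.304). The CDH1 call was at the edge of the threshold. It was lost on leaving out any 1 of the arrays other than control replicate 1 (adjusted p up to 0.138), and the second CDH1 probe set gave 0.08 (adjusted p = 0.926) with 294, 844 and 694 in TIG1A cells and 626, 457 and 515 in control cells.

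The other adherens junction genes did not pass the test in either line. P-cadherin (CDH3), which lies next to CDH1 on chromosome 16, averaged 2178 ± 315 in TIG1A cells, 2350 ± 102 in TIG1B cells and 3050 ± 1050 in control cells, where the first array alone read 4202. Alpha-catenin (CTNNA1), which ties cadherins to actin, gave log2 fold changes of -0.25 with TIG1A and -0.18 with TIG1B, and plakoglobin (JUP) -0.19 and -0.26. Plakoglobin is shared by adherens junctions and desmosomes. EPCAM, the surface adhesion molecule of simple epithelia, read 17414, 22896 and 23418 in TIG1A cells, 19320, 22444 and 21040 in TIG1B cells, and 18461, 20473 and 22394 in control cells. These 3 sets of EPCAM values overlapped throughout, with log2 fold changes of 0.05 and 0.04 and 95% intervals of -0.33 to 0.42 and -0.34 to 0.41.

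KRT19, a keratin of simple epithelia including that of the gut, was the single gene called in both lines. Its intensity was 11781, 11201 and 11150 in TIG1A cells, 12022, 11737 and 10368 in TIG1B cells, and 17816, 18688 and 17461 in control cells. Arrays of both TIG1 lines lay below every control array and overlapped each other. The means were 11377 ± 351 in TIG1A cells, 11376 ± 884 in TIG1B cells and 17988 ± 632 in control cells (SD, n = 3 each). Against control, KRT19 was lower by a log2 fold change of -0.66 with TIG1A (SE 0.12, adjusted p = 0.0267) and -0.66 with TIG1B (adjusted p = 0.0435). Between TIG1A and TIG1B cells the difference was 0.00 with a 95% interval of -0.28 to 0.28. With each array centred on its median instead, KRT19 was still lower, at -0.50 (adjusted p = 0.0761) and -0.52 (adjusted p = 0.112). Leaving out 1 array ended the KRT19 call in TIG1A cells for 7 of the 9 arrays (all but TIG1B replicate 1 and control replicate 1, adjusted p up to 0.0945) and in TIG1B cells for all but control replicate 1 (up to 0.138). A second, dim KRT19 probe set (9.34 to 115 over the 9 arrays) was below the array median on every TIG1A and every control array and gives no fold change between them.

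KRT8 and KRT18 pair to form the filaments of simple epithelia. KRT8 read 18873, 16577 and 13481 in TIG1A cells, 24531, 21479 and 19772 in TIG1B cells, and 24686, 22701 and 25875 in control cells. All TIG1A arrays of KRT8 were below the others, but the log2 fold change of -0.59 did not pass the test (adjusted p = 0.0759). KRT18, its partner, averaged 58484 ± 7481 in TIG1A cells, 60234 ± 14386 in TIG1B cells and 57105 ± 4248 in control cells, close to the highest intensity on each array (59580 to 96272), and its log2 fold changes were 0.03 and 0.05. Probe sets of KRT8 and KRT18 carry the suffix _x_at, which marks probes that may also bind related transcripts. So do the counted sets of CTNNA1 and CLDN3. KRT7 averaged 147 ± 63.1 in TIG1A cells, 146 ± 16.2 in TIG1B cells and 263 ± 43.8 in control cells, with log2 fold changes of -0.94 (adjusted p = 0.139) and -0.85 (adjusted p = 0.241). KRT7 arrays of both TIG1 lines lay below every control array on that counted set. On the second, dimmer KRT7 probe set the groups overlapped, at -0.23 in TIG1A cells (adjusted p = 0.814) and -0.68 in TIG1B cells (adjusted p = 0.513). KRT23 gave 0.45 and -0.56, with 1 control array at 552 and the others at 132 and 89.7. Over the 5 tested keratins the median was -0.59 for TIG1A and -0.56 for TIG1B over control, with 1 of 5 called lower in each, beside 3.62% of all genes for TIG1A and 1.21% for TIG1B, and the median stayed below 0 with quantile normalisation and with median centring.

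**Figure D2:**
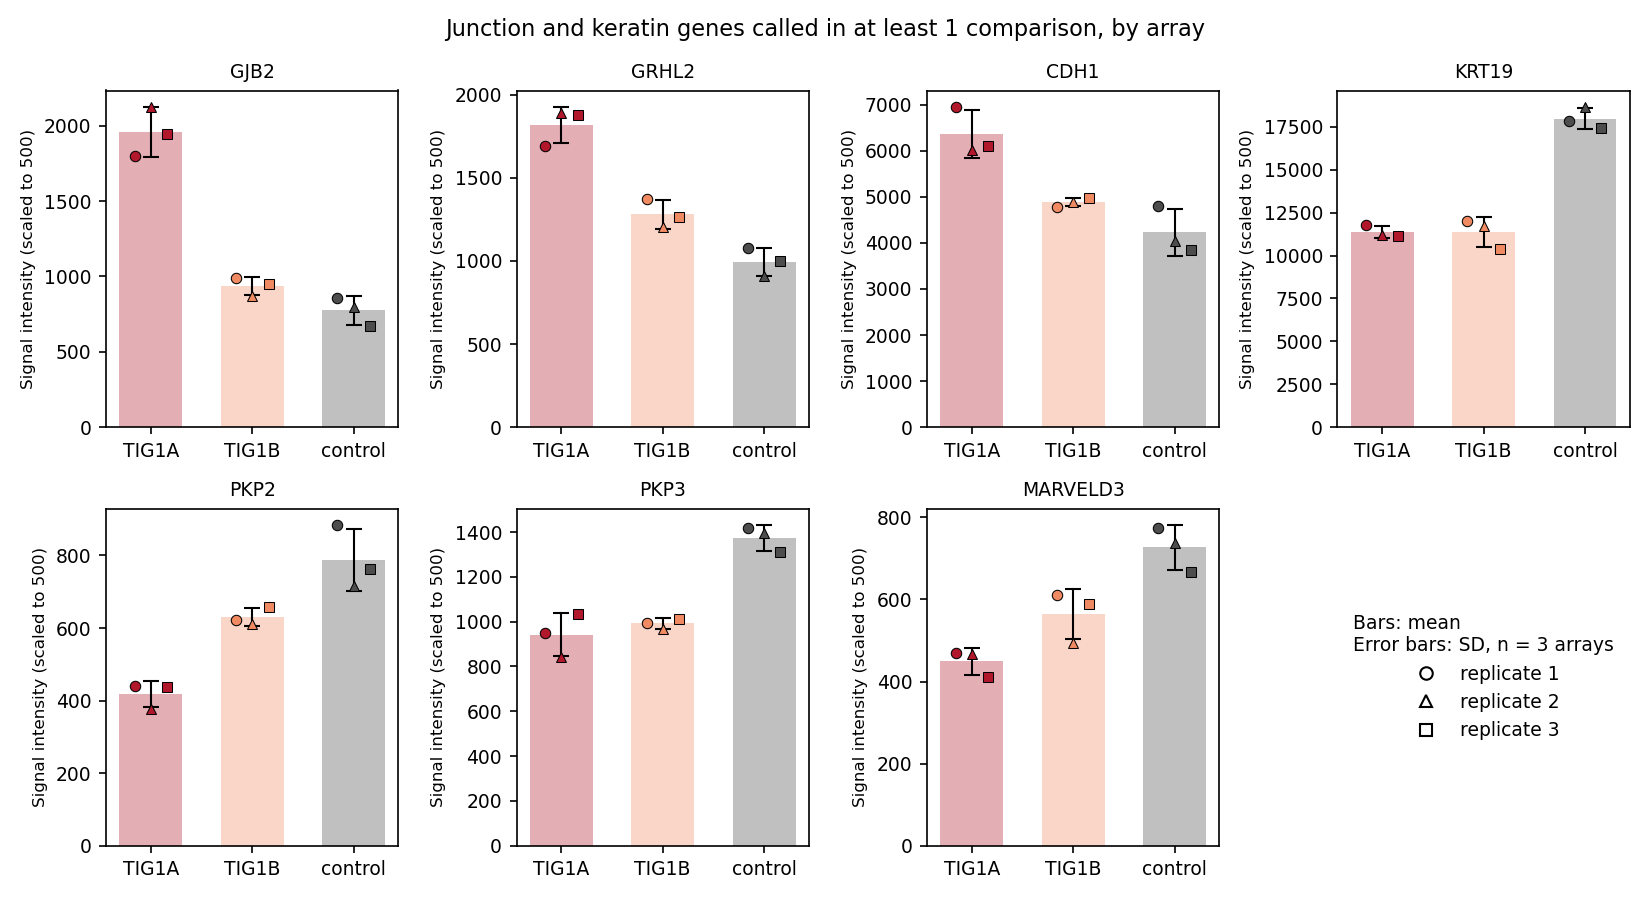
Signal intensity on each array of the 7 genes called in at least 1 comparison, for TIG1A, TIG1B and control cells; bars are means, error bars SD (n = 3 arrays) and symbols the replicate number. GJB2 stood near 1957 in TIG1A cells against 938 and 775 in TIG1B and control cells, whereas KRT19 averaged 11377 in TIG1A and 11376 in TIG1B cells against 17988 in control cells.

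Claudins are the sealing and pore-forming proteins of tight junctions, and all 6 listed were tested. None passed the limma test in any comparison, nor the methods' t-test after Benjamini-Hochberg adjustment, and 1 of 6, CLDN7, was under an unadjusted p of 0.05 in each line against control. Their log2 fold changes over control had a median of -0.30 with TIG1A (5 of 6 below 0) and of -0.12 with TIG1B (4 of 6 below 0). The TIG1B median turned positive with quantile normalisation (0.01) and with median centring (0.03). CLDN7, the claudin of the promoter window with 5 E2 boxes, read 4528, 5509 and 4503 in TIG1A cells, 4216, 5161 and 4840 in TIG1B cells, and 7135, 5335 and 7677 in control cells, with log2 fold changes of -0.46 (adjusted p = 0.168) and -0.49 (adjusted p = 0.210). CLDN7 arrays of TIG1B cells lay below every control array, and 1 TIG1A array did not. CLDN4 had 1190, 585 and 333 in control cells, so that its spread there exceeded any difference from TIG1A cells (577, 523 and 432) or TIG1B cells (572, 400 and 302). CLDN1, CLDN2 and CLDN3 were close to the array medians, between 43.0 and 185 on the 9 arrays, and CLDN12 gave 0.32 and 0.19.

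Among the other tight junction genes, MARVELD3, a membrane protein of the occludin family, was lower in TIG1A cells. It read 469, 468 and 410 in TIG1A cells, 611, 495 and 588 in TIG1B cells, and 775, 738 and 668 in control cells. The 3 groups did not overlap, with TIG1B cells in the middle. MARVELD3 averaged 449 ± 34.1 in TIG1A cells, 565 ± 61.3 in TIG1B cells and 727 ± 54.5 in control cells (SD, n = 3 each). On the log2 scale this was -0.70 for TIG1A over control (SE 0.14, adjusted p = 0.0347) and -0.37 for TIG1B over control (adjusted p = 0.227). Its second probe set gave -0.73 in TIG1A cells (adjusted p = 0.0940) and -0.92 in TIG1B cells (adjusted p = 0.0881). On that set TIG1B arrays (153, 219 and 169) overlapped TIG1A arrays (241, 172 and 203), so TIG1B cells were not in the middle. Another MARVELD3 set, dim, gave 0.93 (adjusted p = 0.481) in TIG1A cells. The MARVELD3 call was lost without any 1 of the arrays other than TIG1B replicate 1 and control replicate 1 (adjusted p up to 0.111), and with median centring (-0.53, adjusted p = 0.0951).

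Tricellulin (MARVELD2), of the same family and found where 3 cells meet, lay on the other side of control, with 1803, 1680 and 1790 in TIG1A cells, 1431, 1658 and 1564 in TIG1B cells, and 1262, 1296 and 1315 in control cells. Arrays of either TIG1 line were above every control array, with log2 fold changes of 0.44 (adjusted p = 0.0685) and 0.26 (adjusted p = 0.294) that did not pass the test. On the second MARVELD2 probe set both lines overlapped control, at 0.18 and 0.08 (adjusted p = 0.61 and 0.856). Occludin (OCLN) and the scaffold protein TJP1 gave 0.00 and -0.01 in TIG1A cells and -0.10 and 0.15 in TIG1B cells. TJP3 read 487, 435 and 476 in TIG1A cells, 262, 338 and 342 in TIG1B cells, and 858, 327 and 345 in control cells, so that TIG1A and TIG1B arrays did not overlap while the first control array was above both. On its second probe set TIG1B arrays (100, 145 and 174) lay below every TIG1A and every control array. There TIG1B cells were at -1.25 over control (adjusted p = 0.143) and TIG1A cells at -0.02. The scaffold protein cingulin (CGN) gave -0.22 in TIG1A cells and -0.52 in TIG1B cells (adjusted p = 0.651 and 0.346).

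Desmosome genes lay on either side of control in TIG1A cells. Plakophilins PKP2 and PKP3, which anchor desmosomal cadherins to desmoplakin, were lower. The desmosomal cadherins DSG2 and DSC2 had higher values, without passing the test. Of the 8 tested genes of desmosomes and the cornified envelope, 2 were called lower and none higher in TIG1A cells (25.0%, beside 3.62% of all genes called lower), and none was called in TIG1B cells, where 2 of 8 (DSG2 and PKP3) were under an unadjusted p of 0.05 and none passed the methods' t-test after adjustment. The groups did not overlap for 6 of the 8 in TIG1A cells against control (DSG2, DSC2 and PPL higher, PKP2, PKP3 and EVPL lower), beside 34.2% of all genes.

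PKP2 read 441, 377 and 437 in TIG1A cells, 623, 611 and 658 in TIG1B cells, and 884, 717 and 763 in control cells. The 3 groups did not overlap, and TIG1B cells were in the middle. PKP2 averaged 418 ± 35.9 in TIG1A cells, 631 ± 24.2 in TIG1B cells and 788 ± 86.1 in control cells (SD, n = 3 each). TIG1A over control was -0.91 on the log2 scale (SE 0.14, adjusted p = 0.0156), TIG1B over control -0.32 (adjusted p = 0.275) and TIG1A over TIG1B -0.60 (adjusted p = 0.14). The second, dimmer PKP2 probe set gave -0.14 in TIG1A cells (adjusted p = 0.822) and -0.30 in TIG1B cells (adjusted p = 0.664). The PKP2 call was lost without TIG1A replicate 2 or 3 (adjusted p up to 0.0645).

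PKP3 read 949, 844 and 1034 in TIG1A cells, 994, 968 and 1014 in TIG1B cells, and 1417, 1397 and 1310 in control cells. Arrays of both TIG1 lines were below every control array and overlapped each other. PKP3 averaged 943 ± 95 in TIG1A cells, 992 ± 23.3 in TIG1B cells and 1374 ± 56.9 in control cells (SD, n = 3 each). As log2 fold changes over control these were -0.55 for TIG1A (SE 0.13, adjusted p = 0.0477) and -0.47 for TIG1B (adjusted p = 0.111), and the second probe set gave -0.44 and -0.49. The PKP3 call was lost on leaving out any 1 of the 9 arrays, with an adjusted p of 0.0599 to 0.147.

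PKP4, the plakophilin-related protein p0071, gave different answers from different probe sets. The brightest read 1175, 1202 and 1047 in TIG1A cells, 1185, 1404 and 1303 in TIG1B cells, and 1248, 1122 and 1091 in control cells, and all 3 groups overlapped, with log2 fold changes of -0.02 and 0.17. The second PKP4 probe set read 610, 501 and 510 in TIG1A cells, 603, 604 and 581 in TIG1B cells, and 1093, 896 and 946 in control cells. On that set TIG1A cells were at -0.86 (adjusted p = 0.0198) and TIG1B cells at -0.71 (adjusted p = 0.0534) on the log2 scale over control. The third gave -0.74 (adjusted p = 0.0347) and -0.50 (adjusted p = 0.139). By the brightest-probe-set rule PKP4 was therefore not counted among the 7, although 2 of its 3 kept probe sets passed the test in TIG1A cells.

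**Figure D3:**
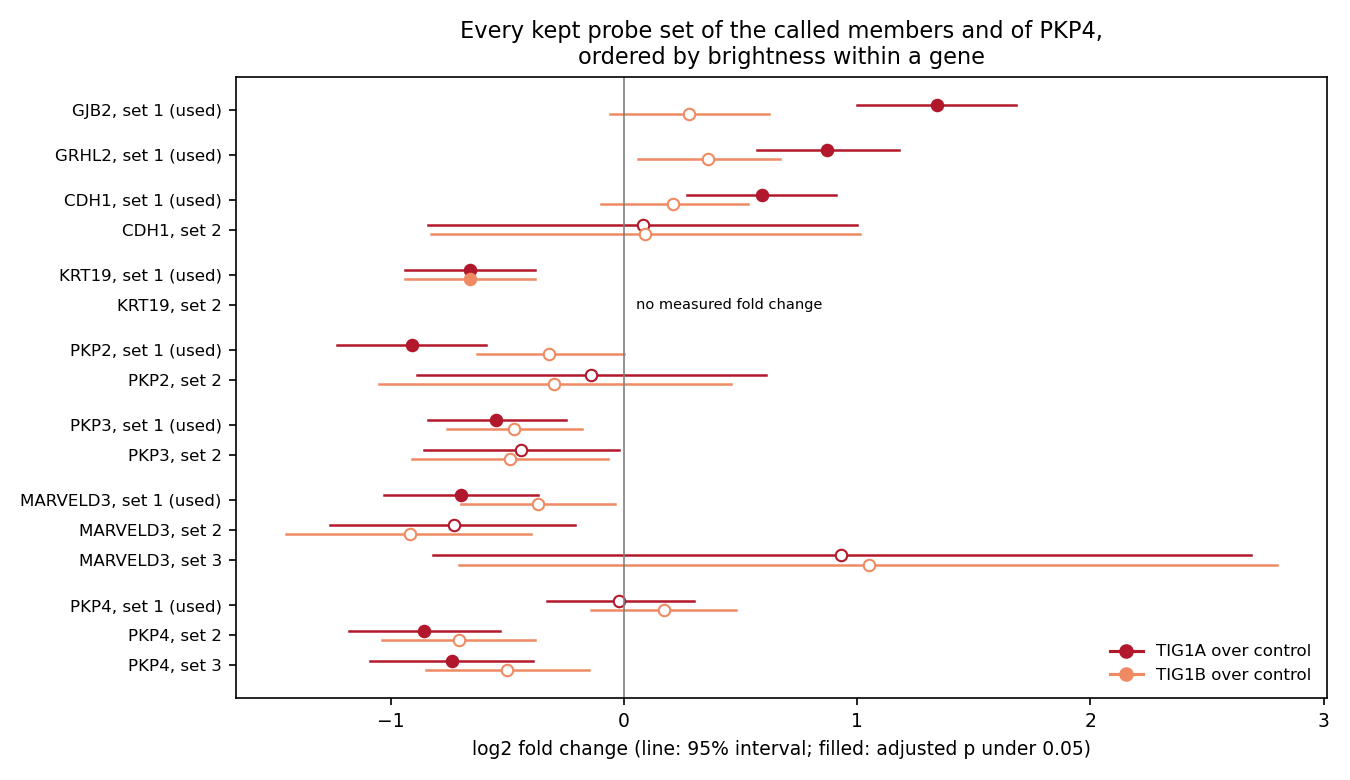
Log2 fold changes over control cells, with 95% intervals, of every kept probe set of the 7 called genes and of PKP4, TIG1A above TIG1B in each pair of rows; sets are ordered by brightness and set 1 is the one counted. None of the 6 further sets of called genes passed the test. KRT19 set 2, too dim in TIG1A and control cells, has no points, 4 of the other 5 had the sign of the counted set in TIG1A cells, and sets 2 and 3 of PKP4 were at -0.86 and -0.74 in TIG1A cells against -0.02 for its set 1.

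DSC2 read 1159, 1523 and 1622 in TIG1A cells, 884, 841 and 807 in TIG1B cells, and 1055, 800 and 673 in control cells. Only the TIG1A arrays stood apart, at a log2 fold change of 0.78 over control (95% interval 0.30 to 1.25, adjusted p = 0.0645). TIG1B cells gave 0.03 (interval -0.45 to 0.50). DSG2 read 6577, 6233 and 6035 in TIG1A cells, 7741, 5100 and 5058 in TIG1B cells, and 4541, 4348 and 3583 in control cells, with log2 fold changes of 0.60 (adjusted p = 0.110) and 0.50 (adjusted p = 0.235). DSG2 arrays of both TIG1 lines were above every control array on that set. On the second DSG2 probe set both lines overlapped control, at 0.34 and 0.22 (adjusted p = 0.274 and 0.537). Desmoplakin (DSP), the link to keratin filaments, gave 0.22 and 0.37 (adjusted p = 0.530 and 0.376). The envelope proteins periplakin (PPL) and envoplakin (EVPL), known as partners in stratified epithelia, differed in sign. PPL read 3006, 2566 and 2676 in TIG1A cells, 1635, 1749 and 1803 in TIG1B cells, and 2512, 1366 and 1169 in control cells (0.79 and 0.12, adjusted p = 0.123 and 0.845). EVPL read 196, 127 and 106 in TIG1A cells, 156, 181 and 217 in TIG1B cells, and 229, 218 and 271 in control cells (-0.79 and -0.38, adjusted p = 0.0995 and 0.452).

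GJB2, which encodes the gap junction protein connexin 26, had the largest log2 fold change of the 7 called genes. It read 1798, 2127 and 1946 in TIG1A cells, 989, 873 and 951 in TIG1B cells, and 859, 796 and 670 in control cells. TIG1A arrays were all above every other array, and the TIG1B arrays were all just above the controls. GJB2 averaged 1957 ± 165 in TIG1A cells, 938 ± 59.0 in TIG1B cells and 775 ± 96.6 in control cells (SD, n = 3 each). Its log2 fold change was 1.34 in TIG1A cells over control (SE 0.15, 2.53-fold, adjusted p = 0.00811), 0.28 in TIG1B cells over control (95% interval -0.06 to 0.62, adjusted p = 0.353) and 1.06 in TIG1A cells over TIG1B cells (2.09-fold, adjusted p = 0.0368). The GJB2 call against control held without any 1 of the 9 arrays (adjusted p 0.00955 to 0.0396). The call between TIG1A and TIG1B cells was lost without any 1 of the 6 arrays of those lines or without control replicate 2 (adjusted p up to 0.145). GJB2 had a single probe set. Its promoter window is the one printed above with an E2 box over the start.

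Of the epithelial regulators, GRHL2 was higher in TIG1A cells. GRHL2 is a grainyhead transcription factor known for activating CDH1 and claudin genes. It read 1693, 1888 and 1875 in TIG1A cells, 1373, 1202 and 1262 in TIG1B cells, and 1076, 907 and 999 in control cells. The 3 groups did not overlap, with TIG1B cells in the middle. GRHL2 averaged 1819 ± 109 in TIG1A cells, 1279 ± 86.6 in TIG1B cells and 994 ± 84.7 in control cells (SD, n = 3 each). TIG1A cells were 0.87 above control on the log2 scale (SE 0.13, 1.83-fold, adjusted p = 0.0152), TIG1B cells 0.36 above control (adjusted p = 0.197), and TIG1A cells 0.51 above TIG1B cells (adjusted p = 0.171). The study had listed GRHL2 among the genes it selected in TIG1A cells on these same arrays, so its direction here is not independent evidence. The GRHL2 call was lost without TIG1A replicate 2 or 3 or control replicate 2 (adjusted p up to 0.0650), and GRHL2 too had a single probe set.

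OVOL1, a zinc-finger factor that represses mesenchymal genes, read 7114, 7177 and 6350 in TIG1A cells, 5397, 6484 and 6147 in TIG1B cells, and 4238, 4555 and 5090 in control cells. OVOL1 arrays of both TIG1 lines were above every control array, at log2 fold changes of 0.57 (adjusted p = 0.0538) and 0.38 (adjusted p = 0.209). Its second probe set gave 0.25 and -0.42. The splicing factor ESRP1 gave 0.23 and 0.00, GRHL1 0.11 and -0.14 and OVOL2 -0.02 and 0.05, with overlapping arrays in each case against control. On the second ESRP1 probe set all TIG1A arrays (5408, 5440 and 5635) were above every control array (5091, 3170 and 3000), at 0.59 (adjusted p = 0.128), and TIG1B cells gave 0.33 (adjusted p = 0.443).

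On the mesenchymal side neither of the 2 tested genes passed the limma test or an unadjusted p of 0.05 against control. VIM read 182, 151 and 121 in TIG1A cells, 83.5, 98.5 and 187 in TIG1B cells, and 152, 98.1 and 120 in control cells, little above the array medians. The 3 sets of VIM values overlapped, and the 95% interval of the TIG1A difference was -0.46 to 1.06 on the log2 scale. ZEB1, the repressor that binds the E2 box, read 1.96, 29.9 and 13.2 in TIG1A cells, 121, 63.9 and 80.6 in TIG1B cells, and 16.5, 103 and 38.7 in control cells. Every TIG1A array of ZEB1 was below the array median, as were 2 of the 3 control arrays, so no fold change is given between them (adjusted p = 0.238). TIG1B cells gave 1.08 on the log2 scale over control (adjusted p = 0.610). TIG1A arrays lay below every TIG1B array, at least 1.34-fold, but that difference did not pass the test either (adjusted p = 0.250), and the other 3 ZEB1 probe sets were too dim to test. ZEB1 passed the intensity filter through TIG1B cells alone. N-cadherin (CDH2) was below the filter on both of its probe sets, at 6.07 to 65.4 over the 9 arrays on the brighter one. In these bulk samples, fewer cells of a kind and less RNA per cell cannot be told apart.

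The genes beside 2 of the 3 genes called higher tended to be higher as well. Up to 12 tested genes on each side were read from RefSeq gene order. Of all 13353 tested genes, 6386 were above 0 in TIG1A cells and 3.39% were called higher. Around GRHL2 on chromosome 8, the 24 neighbours from STK3 to ANGPT1 had a median of 0.43 on the log2 scale in TIG1A cells, with 22 of 24 above 0 and 4 called higher, and of 0.10 in TIG1B cells, with 15 above 0. Around GJB2 on chromosome 13, the 19 neighbours from LINC00417 to FGF9 had a median of 0.52 in TIG1A cells, with 13 above 0 and 3 called higher, and of 0.12 in TIG1B cells. The 24 neighbours of CDH1 on chromosome 16 had a median of -0.18 in TIG1A cells, with 9 above 0. Among the genes called lower, the neighbours' medians in TIG1A cells were -0.15 for KRT19, 0.09 for PKP2, -0.25 for PKP3 and 0.07 for MARVELD3. Such runs were also seen beside genes that were not called. Beside VIM, 18 of 24 neighbours were above 0 and 5 were called higher in TIG1A cells. OVOL1 (0.57) had neighbours on the other side of 0, with a median of -0.39, 5 of 24 above 0 and 3 called lower. The part of neighbouring genes in the GRHL2 and GJB2 results was not tested.

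**Figure D4:**
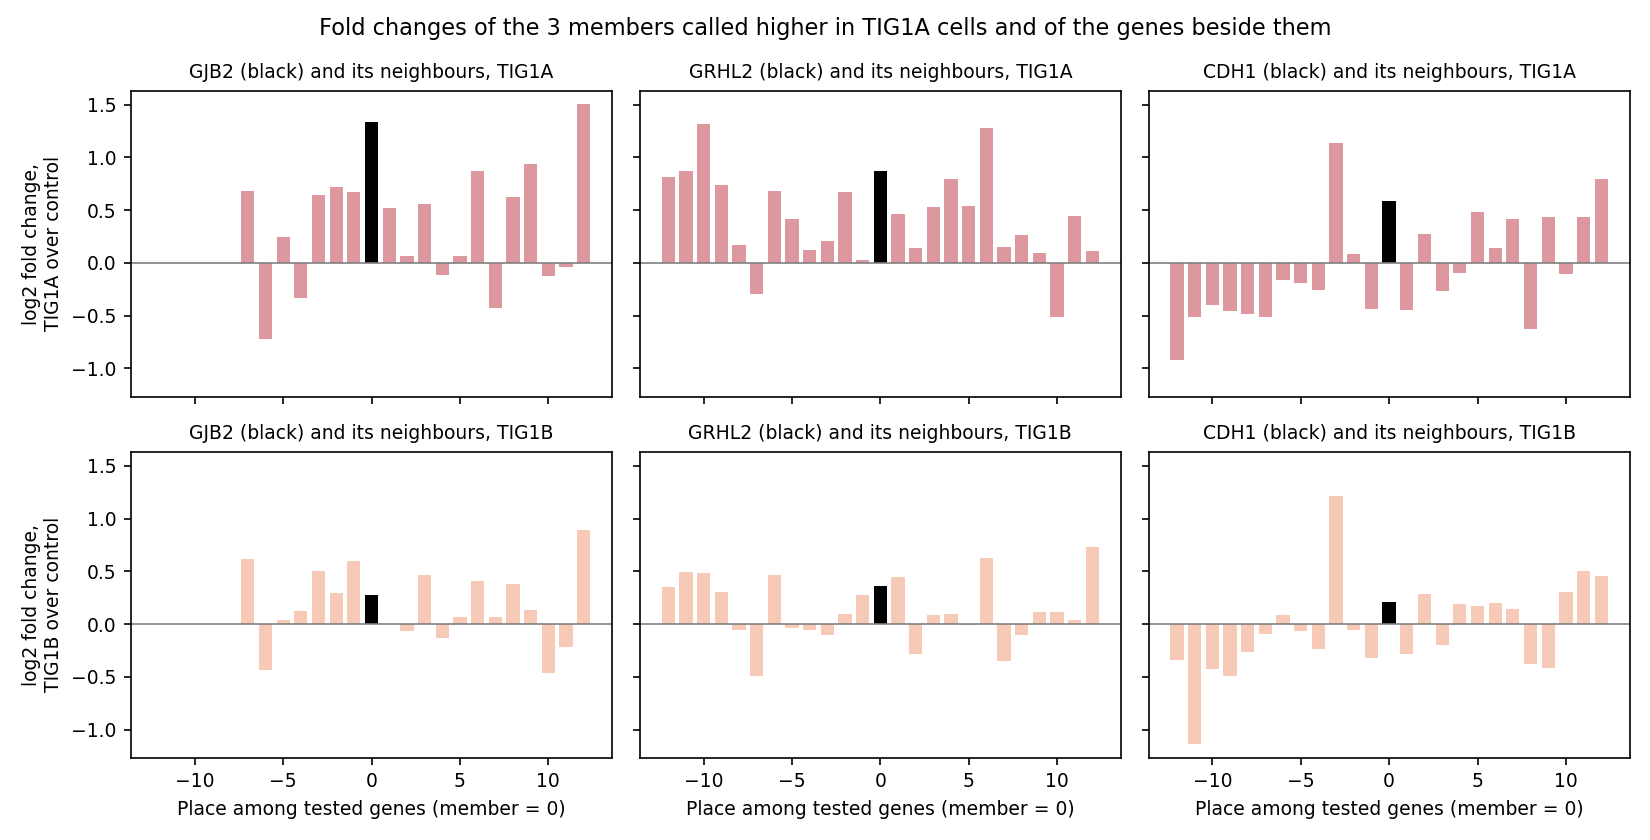
Log2 fold changes over control cells of GJB2, GRHL2 and CDH1 (black, place 0) and of up to 12 tested genes on each side in gene order, in TIG1A cells (top) and TIG1B cells (bottom). In TIG1A cells 22 of the 24 bars beside GRHL2 and 13 of the 19 beside GJB2 were above 0, against 9 of the 24 beside CDH1. Of all 13353 tested genes, 6386 were above 0.

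Junction and polarity genes outside the 44 were read for context, from lists of 71 further genes, of which 64 had a probe set and 42 were tested. These lists too were chosen with earlier results known, so their shares cannot be read as an enrichment. In TIG1A cells 7 of the 42 were called (16.7%, beside 7.01% of all genes), 3 higher and 4 lower. Vinculin (VCL), which couples adherens junctions and focal adhesions to actin, read 2271, 2254 and 2360 in TIG1A cells, 3671, 3597 and 3385 in TIG1B cells, and 4148, 4026 and 3840 in control cells, which as log2 fold changes over control were -0.80 for TIG1A (adjusted p = 0.0144) and -0.17 for TIG1B (adjusted p = 0.459). The actin crosslinker ACTN4 was lower in both lines, with 2837, 2763 and 3076 in TIG1A cells, 2402, 2778 and 2910 in TIG1B cells, and 5141, 4972 and 4167 in control cells (-0.71, adjusted p = 0.0336, and -0.82, adjusted p = 0.0412). VCL arrays of TIG1A cells stood well below the rest, and ACTN4 arrays of the 2 TIG1 lines overlapped each other below the controls.

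Nectin-3 (NECTIN3), an immunoglobulin-like adhesion molecule of adherens junctions, read 1983, 2056 and 1770 in TIG1A cells, 571, 788 and 824 in TIG1B cells, and 1106, 988 and 1176 in control cells. TIG1A arrays were above and TIG1B arrays below every control array of NECTIN3, with log2 fold changes of 0.83 for TIG1A over control (adjusted p = 0.0371), -0.60 for TIG1B over control (adjusted p = 0.133) and 1.43 for TIG1A over TIG1B (adjusted p = 0.0291). S100A4, a calcium-binding protein from the mesenchymal list, read 1760, 1525 and 1389 in TIG1A cells, 374, 340 and 343 in TIG1B cells, and 713, 355 and 292 in control cells. S100A4 was higher in TIG1A cells than in control cells (1.89, adjusted p = 0.0198) and than in TIG1B cells (2.14, adjusted p = 0.0403). It was the 1 gene called of 7 tested on that list (14.3%, beside 7.01% of all genes), and the list did not follow it. In TIG1A cells 5 of the 7 were below control, with a median of -0.48, or -0.05 with dim genes at their bound. SNAI1 gave -0.52 (adjusted p = 0.0913) and MMP2, below the array median on every TIG1A array, was at least 1.68-fold lower (adjusted p = 0.118), both named after their values were seen.

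The polarity proteins PARD6B and PARD6A, close relatives that scaffold the PAR complex at tight junctions, differed in direction. PARD6B read 691, 530 and 766 in TIG1A cells, 1009, 1019 and 869 in TIG1B cells, and 1144, 1458 and 1072 in control cells (-0.89 in TIG1A cells, adjusted p = 0.0386). PARD6A, last of the 7 by p and added once its values were known, read 768, 732 and 761 in TIG1A cells, 523, 473 and 504 in TIG1B cells, and 360, 422 and 170 in control cells (1.35 in TIG1A cells, adjusted p = 0.0470). CLDN18 was below the array median on every TIG1A array, at 16.5, 41.0 and 12.6 against 86.7, 102 and 78.0 in control cells. It was thus at least 1.38-fold lower there (adjusted p = 0.0316), with the array median taken as the lowest measured level. CLDN18, counted among the 7, passed the intensity filter through control cells alone, which favours a lower value in the TIG1 lines. In TIG1B cells 2 of the 42, ACTN4 and JAM2, were called (4.76%, beside 1.84% of all genes), both lower. JAM2, a junctional adhesion molecule, was below the array median on every TIG1B array, at 20.1, 6.87 and 8.72 against 74.9, 55.3 and 105 in control cells. It was at least 1.17-fold lower (adjusted p = 0.0302), and it too passed the filter through control cells alone. Between TIG1A and TIG1B cells 2 of the 42 were called (4.76%, beside 0.584% of all genes), NECTIN3 and S100A4. Of the 3 tested keratins outside the 44 (KRT10, KRT15 and KRT20), limma called none in any comparison. KRT10 (0.32) and KRT20 were under an unadjusted p of 0.05 in TIG1A cells against control. KRT20 was below the array median on every control array and passed the filter through TIG1A cells alone. It gives a bound only, at least 1.15-fold higher, and its p is no support for a difference.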

How the data were processed

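3 samples each of TIG1A, TIG1B and control stable cells were hybridised to Affymetrix Human Genome U133 Plus arrays. The deposited values are linear signal intensities that the authors obtained with GCOS, scaled on each array to a target of 500. The series text gives the inducer as 5 µM, but the sample labels and the methods give 5 nM, which is used here. Of 54675 probe sets, 41097 name 1 gene, 1801 several and 11777 none, per the platform annotation. Intensities were set to at least 1 and taken to log2. The 29977 probe sets at or above the array median on at least 2 of 3 arrays of a group were kept. The 9 arrays were fitted with limma 3.58.1 (R 4.3.3), 1 mean per line, with Benjamini-Hochberg adjustment over all kept probe sets and a threshold of 0.05. This model was chosen in place of the methods' ANOVA and t-tests, and the filter in place of Present calls. It was checked on simulated data. Per gene, the brightest probe set was counted. Intensities of different probe sets were not compared. Values on every array are given for the called genes and for CDH1, EPCAM, VIM, ZEB1 and GRHL2, and for others where the text turns on them. Further genes were named when called, up to 6 per comparison by smallest p. A group on all of whose arrays a gene was below the median gives a bound on the fold change only. The genes and lists were chosen with earlier results of these data known. Promoter sequences and gene order came from RefSeq (GRCh38.p14). The number of arrays limits the precision. Alternatives covered scaling, offset, filter, model, probe set and each array left out.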

Additional observations from a re-analysis of the deposited data

Results flagged for a closer look

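Of the genes described, 3 differed between TIG1A and TIG1B cells by a test of that difference itself (limma, Benjamini-Hochberg over all kept probe sets). GJB2, the connexin 26 gene, was higher in TIG1A cells by 1.06 on the log2 scale (adjusted p = 0.0368), with all 3 TIG1A arrays (1798 to 2127) above all 3 TIG1B arrays (873 to 989). NECTIN3 was higher in TIG1A cells by 1.43 (adjusted p = 0.0291), with the 3 control arrays between those of TIG1A and TIG1B cells. S100A4 was higher in TIG1A cells by 2.14 (adjusted p = 0.0403), with TIG1B and control arrays overlapping. None of these 3 calls was firm. With no filter, with replicate number as a block, or without TIG1A replicate 2 or TIG1B replicate 2, 0% of all genes were called between the TIG1 lines. Each line is 1 clone, so the isoform and the clone cannot be told apart.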

How the results depend on the processing

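GJB2 stayed higher in TIG1A than in control cells on every alternative tried, and kept its call in 9 of 11 changes of scaling, offset, filter, model or probe set and without any 1 array. Of the 9 calls, only that of KRT19 in TIG1B cells changed sign, at 0.06 with the mean over probe sets, which adds its dim second set. The number of genes called in TIG1A cells against control (7) became 0 with no filter, 13 with a filter at the 75th percentile, 13 with trended and robust variances, 1 with only the 6 arrays of the comparison, 3 with the mean over probe sets, 1 by the methods' t-test after adjustment (KRT19) and 1 by that test unadjusted with a fold of 2 (GJB2). The share of all genes called moved as well. In that order it was 0.106%, 25.3%, 14.6%, 0.502%, 7.94%, 0.524% and 4.9%, beside 7.01% in the main fit. The 3 of 38 called with the mean over probe sets were thus close to the share of all genes. In TIG1B cells (1) the number called became 2 at the 75th percentile and 0 with median centring, no filter, 6 arrays, either t-test and the mean over probe sets. Of all genes, 11.8% were called at the 75th percentile and 0.0101% to 2.97% under the others. Between TIG1A and TIG1B cells (1) the number called became 4 at the 75th percentile, 2 by the unadjusted t-test, and 0 with median centring, no filter, 6 arrays and the adjusted t-test. Of all genes, 5.01% and 2.43% were called under the first 2 of these and at most 0.352% under the others. Leaving out 1 array gave 1 to 8, 0 to 1 and 0 to 1 genes. The shares of all genes were 0.944% to 11.2%, 0.157% to 3.73% and 0% to 0.696%. In TIG1A cells the count was 3 without TIG1A replicate 1, TIG1B replicate 2, TIG1B replicate 3 or control replicate 3, 2 without control replicate 2, 1 without TIG1A replicate 2 or 3, 5 without TIG1B replicate 1 and 8 without control replicate 1. In TIG1B cells it was 0 unless control replicate 1 was the array left out, and between the TIG1 lines 0 unless control replicate 1 or 3 was. Leaving out TIG1A replicate 1 and TIG1B replicate 1 together, chosen after seeing the data, gave 1, 0 and 0. Of all genes, 1.15%, 0.00749% and 0% were then called. The median over the 38 genes became 0.153 (TIG1A) and 0.106 (TIG1B) with median centring, -0.116 (TIG1A) with the mean over probe sets, and without 1 array -0.070 to 0.001 in TIG1A and -0.194 (without control replicate 2) to 0.035 in TIG1B cells. The cause was not tested. Median centring also moved the median of all kept probe sets to 0.121 (TIG1A) and 0.116 (TIG1B), beside -0.044 and -0.03, and the higher calls to 78.1% and 70.5% of all called sets, beside 47.2% and 39.3%. The replicate numbers did not pair the samples in general, since 3 of 9 arrays correlated best with their own number. Only 1 of 9 same-numbered pairs had deviations correlated above 0.1. That pair was TIG1A replicate 1 with TIG1B replicate 1, at 0.192, against -0.126 to 0.0895 for pairs of unlike number. These are the arrays with GAPDH 3' to 5' ratios of 1.00 and 1.01. With the replicate block 3, 0 and 0 genes were called (PKP2, GJB2 and GRHL2 in TIG1A cells), beside 2.37%, 0% and 0% of all genes. Dim genes such as ZEB1 and CDH2 are close to background, where 3 arrays per line resolve only large differences.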

Other observations

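The first control array stood above the other control arrays for 22 of the 38 tested genes, among them CDH3 (4202 against 2147 and 2803), CLDN4 (1190 against 585 and 333), TJP3 (858 against 327 and 345) and PPL (2512 against 1366 and 1169). Without that array, 8 of the 38 were called in TIG1A cells, with DSC2 and PPL added and PKP3 lost, beside 11.2% of all genes. Of 18 tested genes with more than 1 kept probe set, the 27 further probe sets included 3 too dim in TIG1A or control cells for a fold change, 20 of the other 24 had the sign of the counted one in TIG1A cells, and only the 2 further PKP4 sets passed the test. On the counted probe sets of 6 of the 7 genes called in TIG1A cells, all but KRT19, the TIG1B mean lay between the TIG1A and control means. These genes were picked by their TIG1A difference from the same control arrays, and the share over all genes was not counted. On the second sets of PKP2, PKP3 and MARVELD3 the TIG1B means (139, 374 and 180) were below those of TIG1A (144, 391 and 205) and control cells (159, 529 and 344). The envelope pair PPL and EVPL and the tight junction pair MARVELD2 and MARVELD3 had fold changes of opposite sign in TIG1A cells (0.79 and -0.79, 0.44 and -0.70), of which only that of MARVELD3 passed the test.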
